A study of Mus musculus with 12 samples.

Results

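The NF-kappaB subunits and inhibitors described here are 10 mouse genes found by their symbols in the count table, out of 54532 genes listed. They comprise Nfkbia, Nfkbib, Nfkbie and Nfkbiz (inhibitors of the IkappaB family), Nfkb1, Nfkb2, Rela and Relb (DNA-binding subunits), Tnfaip3 (the ubiquitin-editing inhibitor A20) and Ikbkb (the catalytic kinase IKKbeta). All 10 had enough counts to be among the 13571 genes tested. The group was proposed after Nfkbia had stood out in these same libraries for a wound-dependent ratio of cortical to total RNA, so the group was chosen by the Nfkbia counts in the 4 sets of libraries, and the Nfkbia values and the change of that ratio in every member are given as a description with no p-value. The 12 libraries measured RNA on translating ribosomes of cultured mouse keratinocytes, the epithelial cells of the epidermis, in 4 groups of 3: the total and the cortical fraction of unwounded cells, and both fractions of wounded cells. All groups had the genotype WT DP-BirA(1-584), and all received calcium (1.2 micromolar, as labelled) and 2 µg/mL doxycycline to express DP(1-584)-BirA, residues 1 to 584 of the desmosomal protein desmoplakin joined to a biotin ligase. Confluent cells were wounded or not and then given biotin for 16 h. The translating fraction of a sucrose gradient was passed over neutravidin, which holds biotin: the bound RNA is the cortical translatome, and the RNA left after that depletion is called the total translatome. The total libraries are therefore what remained after the cortical capture, and a capture from cells without the ligase was not analysed here. The titles number the libraries as biological replicates but do not say whether they came from separate cultures, so a p-value measures only the spread between these libraries.

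NF-kappaB proteins are transcription factors that work as pairs of subunits. In resting cells, IkappaB proteins such as the Nfkbia product IkappaBalpha hold the pairs in the cytoplasm. Receptors of the tumour necrosis factor, interleukin-1 and Toll-like families activate the IKK kinase complex, IkappaB is phosphorylated and degraded, and the freed pairs enter the nucleus. Nfkbia, Tnfaip3, Nfkb2 and Relb are themselves well-known NF-kappaB target genes, which makes several of the members part of a feedback loop. In the epidermis the pathway takes part in inflammation, barrier defence and the balance between growth and differentiation of keratinocytes.

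Promoter sequence was read for the members because several are known NF-kappaB targets. RefSeq windows (GRCm38, the 250 bases before a start site) matched 6 of the 10 members: Nfkbia, Nfkbib, Nfkbie, Nfkb2, Rela and Tnfaip3. The 10-base NF-kappaB consensus, searched on both strands, was present in at least 1 window of 4 of them, Nfkbia, Nfkbie, Nfkb2 and Tnfaip3, and had no match in the windows of Nfkbib and Rela. Among all 32851 such windows, 2382 (7.25%) held a match, and 338 (1.03%) held 2 or more. There, overlapping matches count separately, and the same bases read on the other strand count once. By gene, 2225 of 27025 (8.23%) had a match in at least 1 window. The Nfkbia window lies at chr12:55492648-55492897 on the minus strand, directly before the gene. Its single match, at positions -29 to -20 from the start site, is in capitals and is read on the strand opposite to the gene.
Nfkbia promoter: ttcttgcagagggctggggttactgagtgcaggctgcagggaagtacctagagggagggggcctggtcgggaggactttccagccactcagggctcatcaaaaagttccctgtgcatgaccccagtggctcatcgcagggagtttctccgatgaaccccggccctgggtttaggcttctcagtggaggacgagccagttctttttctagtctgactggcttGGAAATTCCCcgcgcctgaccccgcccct
The other matched members are shown as 30 bases around a site, with the match in capitals and each named by its distance from a start site. Those of Nfkb2 (plus strand) lie at chr19:46304688-46304717 and chr19:46304707-46304736, before the start at 46304737, at chr19:46305449-46305478, before a start at 46305695, and at chr19:46305695-46305724, before a start at 46305930. Those of Tnfaip3 (minus strand) lie at chr10:19015516-19015545 and chr10:19015411-19015440. The site of Nfkbie (plus strand) lies at chr17:45555584-45555613.
Nfkb2 at -39: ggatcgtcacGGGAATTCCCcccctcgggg
Nfkb2 at -11: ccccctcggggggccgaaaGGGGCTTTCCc
Nfkb2 at -236: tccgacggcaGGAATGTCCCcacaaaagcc
Nfkb2 at -225: tggtattttcGGGACTTTCCtaagcagcac
Tnfaip3 at -125: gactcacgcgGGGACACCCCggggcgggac
Tnfaip3 at -12: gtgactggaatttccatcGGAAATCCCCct
Nfkbie at -106: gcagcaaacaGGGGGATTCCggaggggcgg
A match describes the letters of the window, and binding was not measured. In the GENCODE M21 annotation, exons of the same gene covered all 250 bases of the first Nfkb2 window and 234 of that before 46305930. They covered 110 bases of the first Tnfaip3 window and 58 of the Rela window, and none of the remaining windows. The first Nfkb2 window held 4 matches and the first Tnfaip3 window 3, with the same bases on either strand counted separately. The Nfkb2 match at -39 and the Tnfaip3 match at -125 were each read on both strands. A further Nfkb2 match counted here, at -38 to -29 on the strand opposite to the gene, overlaps the match at -39. Its last base is not in capitals above. These counts are therefore not on the measure used for the 338 windows.

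The libraries held 8980013 to 23457548 counts. The library wounded total replicate 1 stood apart: it detected 13117 genes against 14393 to 16867 in the others, and its Spearman correlation with the other wounded total libraries was 0.962 and 0.966 against 0.981 or more for every other pair within a group. Member values that its omission moved by more than 1.5 times, or across the threshold, are therefore given with and without it, and pathway calls without it as counts. Of the tested genes, 14.2% differed between cortical and total RNA in unwounded cells, 15.7% in wounded cells, 15.6% between wounded and unwounded total RNA and 2.48% between the cortical fractions. Scaling by library size alone moved the median gene towards the cortical fraction, from 0.00 to 0.19 on the log2 scale in unwounded and from 0.04 to 0.25 in wounded cells. The split of calls moved with it, from 898 higher and 1030 lower to 1582 and 469 in unwounded cells and from 1034 and 1090 to 2203 and 520 in wounded cells. For wounded against unwounded total RNA it moved from 1139 and 977 to 708 and 1104, with the median gene at -0.10, and for the cortical fractions from 217 and 120 to 108 and 91. All 12 keratinocyte markers were detected, although Krt1, a marker of differentiated keratinocytes, averaged only 1.05 CPM (counts per unit of sequencing depth, after TMM scaling). Of the leukocyte markers 1 of 8 was tested, Cd68, while Ptprc and Cd3e had 7 and 1 counts over all libraries and Lyz2, Adgre1, Csf1r, Cd207 and Itgam were at 0. Of the fibroblast markers 3 of 8 were tested: Fbln1 averaged 53.1 CPM, Pdgfra 1.25 and Col1a1 0.83, while Dcn and Thy1 were at 0. Counts were present for 4 of 6 melanocyte markers, with Pmel at 1.08 CPM, while Tyr and Tyrp1 were at 0. They were present for 4 of 5 endothelial markers, with Pecam1 at 1.02 CPM, while Cdh5 was at 0.

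Between genes, levels were compared as deposited FPKM (fragments per kilobase and per unit of sequencing depth), which accounts for gene length. That length is the deposited one. For Nfkb2 it is 3289 bases against 4584 of merged exons in the GENCODE M21 annotation, and for Rela 2716 against 3072. Longer lengths would lower the FPKM of Nfkb2 and Rela, and the order was not recomputed with them. In unwounded total RNA the most abundant member was Nfkbib, at 35.2 ± 0.94 FPKM (SD, n = 3), followed by Nfkbia at 20.2 ± 0.57, Nfkb2 at 18.6 ± 0.24 and Rela at 15.3 ± 0.76. Nfkbiz (5.13 ± 0.70) and Relb (4.09 ± 0.34) formed a middle tier. Nfkb1 (0.96 ± 0.17), Ikbkb (0.47 ± 0.02), Tnfaip3 (0.45 ± 0.10) and Nfkbie (0.34 ± 0.04) were at or below about 1 FPKM, and the ranges of the last 3 overlapped from one to the next. In unwounded cortical RNA, Nfkbia was the most abundant member at 69.3 ± 3.44 FPKM, above the whole range of Nfkbib (27.2 to 34.1 FPKM). In wounded cortical RNA, Nfkbia (37.7 ± 1.05 FPKM), Nfkbib (32.7 ± 2.49) and Nfkb2 (29.4 ± 0.36) kept ranges that did not overlap from one to the next. In wounded total RNA, Nfkbib (33.7 ± 4.94), Nfkbia (28.6 ± 4.72) and Nfkb2 (26.9 ± 4.69) were not distinguishable by their ranges. At the deposited lengths, Rela ranked directly below these 3 in all 4 groups, without overlap with its neighbours. Relb stood above Nfkbiz only in the wounded groups.

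Nfkbia (ENSMUSG00000021025, mm10 chr12:55489410-55492647, minus strand), which encodes the inhibitor IkappaBalpha, is the member the group was proposed around. Its level was 33.4, 32.3 and 33.7 CPM in the unwounded total libraries and 118, 106 and 112 CPM in the unwounded cortical ones. In wounded cells it was 54.7, 40.9 and 42.4 CPM in the total libraries and 63.4, 61.1 and 60.4 CPM in the cortical ones. The 4 groups did not overlap, and they ran from unwounded total through wounded total and wounded cortical to unwounded cortical. The cortical level exceeded the total level 3.38-fold in unwounded and 1.34-fold in wounded cells, as ratios of mean CPM. On the log2 scale the fitted difference was 1.76 (SE 0.12) in unwounded and 0.42 (SE 0.11) in wounded cells, so the ratio changed by -1.33 (SE 0.16).

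That change had contributions from both fractions. Wounded total RNA held 1.39 times the Nfkbia level of unwounded total RNA (log2 difference 0.47, SE 0.12), and wounded cortical RNA held 0.55 times that of unwounded cortical RNA (log2 difference -0.86, SE 0.11). Wounded total replicate 1 was the highest of its group. Without it, the difference between wounded and unwounded total RNA was 0.33, the cortical-to-total difference in wounded cells was 0.56 and the change of the ratio was -1.19. The difference between the cortical fractions, which uses no total library, stayed at -0.86. The whole keratinocyte marker list summed to 14467 to 15802 CPM in unwounded total, 20048 to 20321 in unwounded cortical, 22561 to 27880 in wounded total and 27963 to 28263 in wounded cortical RNA, an order that differs from that of Nfkbia. Most of this sum came from Krt14, Krt5, Krt17 and Krt6a, at means of 7672, 5964, 4737 and 2311 CPM over all libraries. In these bulk fractions, fewer cells with an RNA and less of it per cell cannot be told apart.

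**Figure D1:**
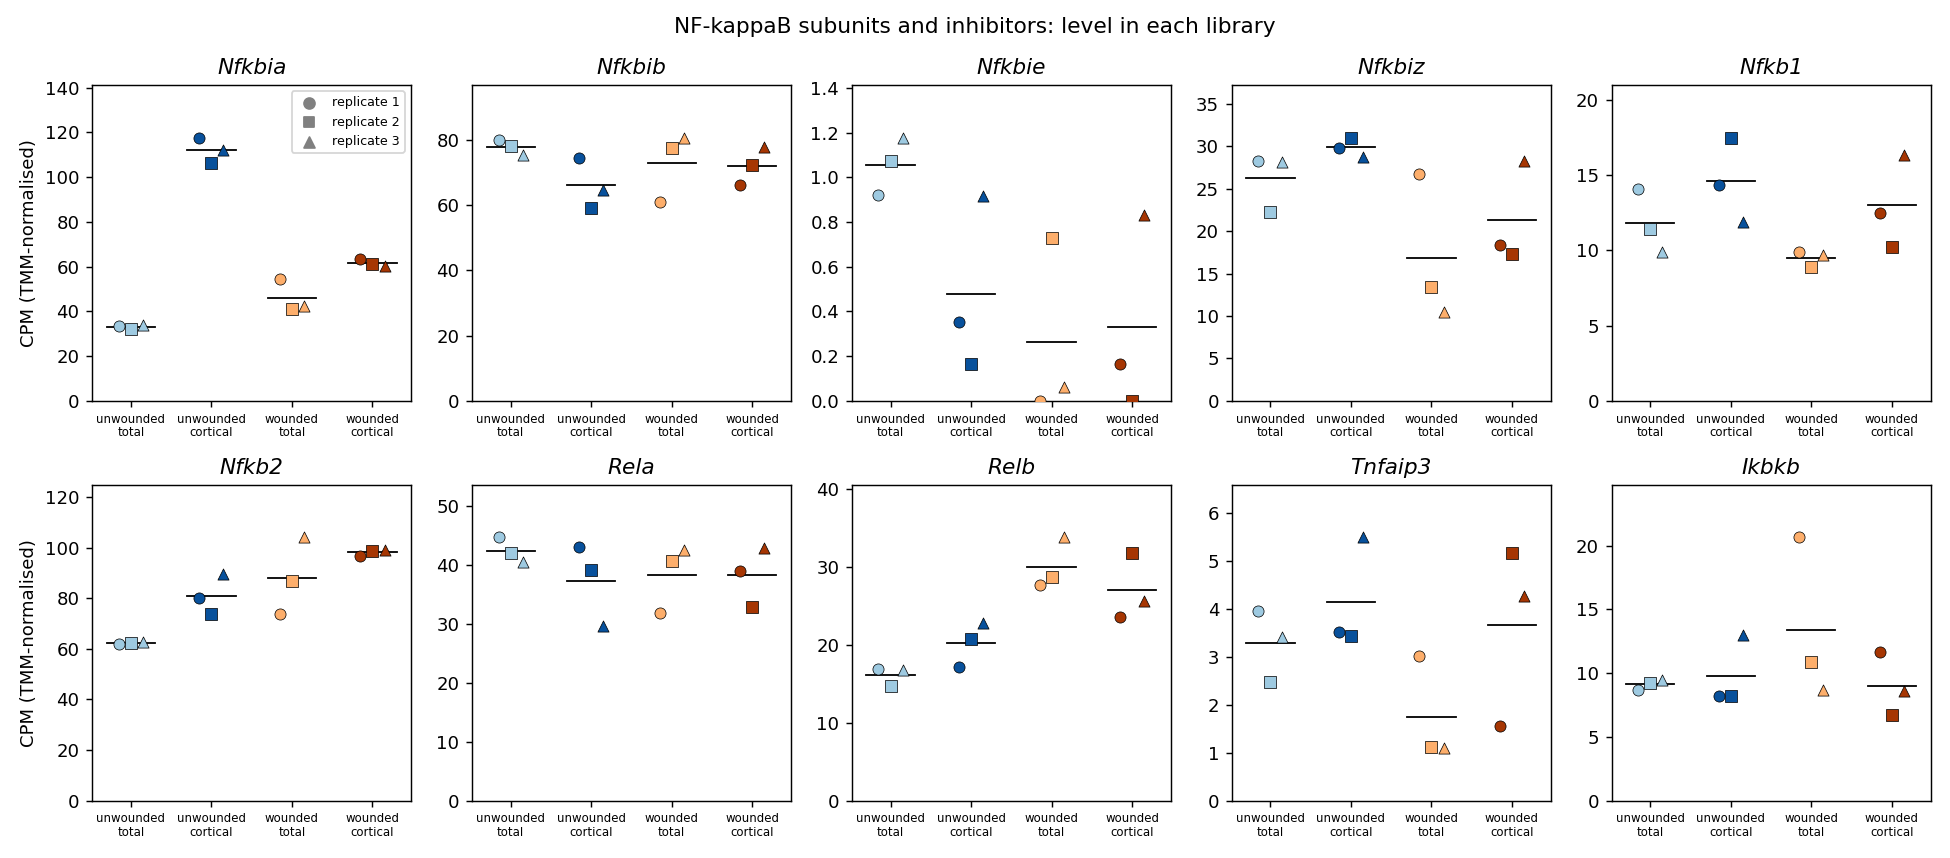
Level of each of the 10 members in each library, in CPM after TMM scaling on linear axes that start at 0 and differ between panels; colours mark the 4 groups, symbols the replicate number, and black lines the group means of 3 libraries. Nfkbia lies at 106 to 118 CPM in unwounded cortical RNA, above every other library, and wounded total replicate 1 stands away from its group for Nfkbiz, Tnfaip3 and Ikbkb.

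Nfkbib, which encodes IkappaBbeta, did not share this pattern. It was at 79.8, 78.0 and 75.4 CPM in unwounded total, 74.5, 59.2 and 64.5 in unwounded cortical, 60.8, 77.4 and 80.6 in wounded total and 66.2, 72.3 and 77.6 in wounded cortical RNA. The cortical libraries of unwounded cells all lay below the total ones, but the log2 difference of -0.23 (SE 0.12) did not pass the test (edgeR adjusted p = 0.245). No other comparison of Nfkbib exceeded 0.12 in size on the log2 scale, and the smallest adjusted p among them was 0.678 (edgeR). Without wounded total replicate 1, the difference between the total fractions went from -0.09 to 0.02 and the cortical-to-total difference in wounded cells from -0.02 to -0.14. Its exons share 314 bases (14.5%) with Ccer2 and 42 with Sirt2 on the opposite strand, and the libraries do not record strand, so reads there cannot be assigned to one gene.

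Nfkbie, which encodes IkappaBepsilon, was close to the detection limit. Its counts were 21, 19 and 20 in unwounded total, 9, 2 and 9 in unwounded cortical, 0, 13 and 1 in wounded total and 4, 0 and 17 in wounded cortical libraries. The unwounded total libraries were the highest on the CPM scale and did not overlap with unwounded cortical or wounded total RNA, yet no comparison passed (edgeR adjusted p from 0.369 to 0.910). The standard errors of these log2 differences were 1.31 to 1.34. In wounded cells the cortical-to-total difference changed sign, from 0.33 to -0.24, without wounded total replicate 1.

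Nfkbiz encodes IkappaBzeta, an atypical nuclear family member that acts as a co-regulator of a subset of inflammatory genes. It was at 28.3, 22.2 and 28.1 CPM in unwounded total, 29.8, 31.0 and 28.8 in unwounded cortical, 26.8, 13.4 and 10.5 in wounded total and 18.4, 17.4 and 28.3 in wounded cortical RNA. The 3 wounded total libraries fell apart: replicate 1 lay within the unwounded range and the others at 13.4 and 10.5 CPM, so the whole comparison rests on which libraries are used. With all libraries, the log2 difference between wounded and unwounded total RNA was -0.64 (SE 0.27, edgeR adjusted p = 0.120). Without wounded total replicate 1 it was -1.14 (edgeR adjusted p = 0.00015), and the cortical-to-total difference in wounded cells went from 0.34 (edgeR adjusted p = 0.444) to 0.84 (edgeR adjusted p = 0.0028). With no filter on low counts the -0.64 also passed (edgeR adjusted p = 0.00668). Between the cortical fractions, all wounded libraries lay below all unwounded ones, with a log2 difference of -0.48 (SE 0.26, edgeR adjusted p = 0.370).

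Among the subunits, Nfkb2 and Relb, the partners of the non-canonical branch of the pathway, were higher in wounded than in unwounded total RNA. Nfkb2 (ENSMUSG00000025225, mm10 chr19:46304737-46312090, plus strand), which encodes p100, the precursor of p52, was at 61.9, 62.1 and 62.9 CPM in unwounded total and 73.8, 86.6 and 104 CPM in wounded total RNA. It was at 80.1, 73.7 and 89.4 CPM in unwounded cortical and 96.6, 98.8 and 99.0 CPM in wounded cortical RNA. All wounded libraries of either fraction lay above the unwounded ones of that fraction. In total RNA the rise was 0.50 on the log2 scale (SE 0.12, edgeR adjusted p = 0.00873), and it was 0.36 without wounded total replicate 3 (edgeR adjusted p = 0.0555) and 0.61 without replicate 1 (edgeR adjusted p = 0.00012). In cortical RNA the difference of 0.28 (SE 0.12) did not pass (edgeR adjusted p = 0.233).

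Nfkb2 was also higher in cortical than in total RNA of unwounded cells, by 0.38 on the log2 scale (SE 0.12, edgeR adjusted p = 0.0413). That call was lost in 10 of 24 alternative settings, with adjusted p up to 0.185 (edgeR, without unwounded cortical replicate 3), although all the unwounded cortical libraries lay above all the total ones. In wounded cells the cortical-to-total difference was 0.15 (SE 0.12, edgeR adjusted p = 0.425), and 0.04 without wounded total replicate 1. With library size scaling it was 0.39 and passed (edgeR adjusted p = 0.0192). In the GENCODE M21 annotation, exons of Nfkb2 share 299 bases with Psd and 531 with a non-coding transcript on the opposite strand. Unstranded libraries cannot separate such bases. The counted Nfkb2 differs from that annotation in coordinates and length, so its own overlap was not determined.

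Relb (ENSMUSG00000002983, mm10 chr7:19606217-19629438, minus strand), the usual partner of p52, was at 16.9, 14.7 and 16.8 CPM in unwounded total and 27.7, 28.7 and 33.8 CPM in wounded total RNA. It was at 17.2, 20.8 and 22.8 CPM in unwounded cortical and 23.6, 31.8 and 25.7 CPM in wounded cortical RNA. Wounded libraries lay above unwounded ones in both fractions without overlap. The rise in total RNA was 0.90 on the log2 scale (SE 0.16, edgeR adjusted p = 0.00121), a 1.86-fold ratio of mean CPM, and it was 0.95 without wounded total replicate 1 (edgeR adjusted p = 0.00015). In cortical RNA the difference was 0.42 (SE 0.16, edgeR adjusted p = 0.177). The cortical-to-total difference was 0.32 in unwounded cells (SE 0.16, edgeR adjusted p = 0.222) and -0.16 in wounded cells (SE 0.16, edgeR adjusted p = 0.569), and the latter was 0.07 with library size scaling. The keratinocyte marker sum, mostly Krt14, Krt5, Krt17 and Krt6a, was also higher in wounded than in unwounded total RNA. The leukocyte sum, almost all Cd68, was 20.9 to 24.9 CPM in unwounded total, 17.8 to 20.9 in unwounded cortical, 43.2 to 58.7 in wounded total and 32.9 to 38.6 in wounded cortical RNA. The fibroblast sum, mostly Fbln1, was 41.7 to 47.7 CPM in unwounded total, 42.4 to 48.9 in unwounded cortical, 58.6 to 78.7 in wounded total and 58.7 to 67.4 in wounded cortical RNA. The part of these marker sums in the rise of Nfkb2 and Relb was not tested.

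The canonical subunits showed no difference past the threshold. Rela, which encodes the activating subunit p65, was at 44.7, 42.1 and 40.5 CPM in unwounded total, 43.0, 39.0 and 29.6 in unwounded cortical, 31.8, 40.6 and 42.5 in wounded total and 39.0, 32.8 and 42.8 in wounded cortical RNA. The groups overlapped in every comparison, and the largest log2 difference was -0.18, with an SE of 0.15, and no edgeR adjusted p was under 0.536. Without wounded total replicate 1 the difference between the total fractions went from -0.15 to -0.03 and that between the wounded fractions from -0.003 to -0.12. Nfkb1, which encodes p105, the precursor of p50, was at 14.0, 11.4 and 9.90 CPM in unwounded total, 14.3, 17.5 and 11.9 in unwounded cortical, 9.91, 8.87 and 9.69 in wounded total and 12.5, 10.2 and 16.3 in wounded cortical RNA. Its cortical libraries lay above its total libraries in wounded cells, by 0.46 on the log2 scale (SE 0.22, edgeR adjusted p = 0.182). Its other differences ranged from -0.31 to 0.31, with edgeR adjusted p of at least 0.383.

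Tnfaip3 (ENSMUSG00000019850, mm10 chr10:19000910-19015657, minus strand), whose product A20 removes activating ubiquitin chains upstream of IKK, was measured on few counts. These were 90, 44 and 58 in unwounded total, 90, 41 and 54 in unwounded cortical, 51, 20 and 18 in wounded total and 38, 82 and 87 in wounded cortical libraries. On the CPM scale wounded total replicates 2 and 3 were the lowest of all libraries, at 1.12 and 1.10, and replicate 1, at 3.03, lay within the unwounded range. The log2 difference between wounded and unwounded total RNA was -0.91 (SE 0.51, edgeR adjusted p = 0.264), and -1.56 without wounded total replicate 1 (edgeR adjusted p = 0.0285). The cortical-to-total difference in wounded cells was 1.05 (SE 0.51, edgeR adjusted p = 0.188), and 1.70 without that library (edgeR adjusted p = 0.0179).

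Ikbkb, the kinase that phosphorylates IkappaB, was at 8.69, 9.26 and 9.43 CPM in unwounded total, 8.17, 8.19 and 13.0 in unwounded cortical, 20.6, 10.9 and 8.71 in wounded total and 11.7, 6.73 and 8.62 in wounded cortical RNA. Wounded total replicate 1 was again the exception, here as the highest library of all. No comparison passed the threshold: the cortical-to-total difference in wounded cells was -0.57 (SE 0.30, edgeR adjusted p = 0.229), and -0.12 without that library (edgeR adjusted p = 0.814). Between the total fractions it was 0.56 (SE 0.30, edgeR adjusted p = 0.241), and 0.10 without it. With the trend on gene length removed, the cortical-to-total difference in wounded cells was -0.95 and passed (edgeR adjusted p = 0.0384).

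Counted together, 2 of the 10 members (Nfkbia and Nfkb2) were called higher in cortical than in total RNA of unwounded cells, where 14.2% of all tested genes were called in either direction, 6.62% as higher and 7.59% as lower. In wounded cells 1 member (Nfkbia) was called higher, against 15.7% of all genes in either direction, 7.62% as higher and 8.03% as lower. Between wounded and unwounded total RNA, 3 members (Nfkbia, Nfkb2 and Relb) were called higher and none lower, against 15.6% of genes in either direction, 8.39% as higher and 7.2% as lower. Between the cortical fractions 1 member (Nfkbia) was called lower, against 2.48% of genes in either direction, 1.6% as higher and 0.884% as lower. Nfkbia is in each of these counts and was chosen for its values, so they are not evidence about the group. For the change of the cortical-to-total ratio 17 genes were called (0.125%; 0.0221% as higher and 0.103% as lower). Nfkbia is 1 of them, and since it was chosen from this contrast nothing is read from that call.

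The members did not move as a block. Their median log2 difference was 0.25 between cortical and total RNA in unwounded cells and 0.24 in wounded cells, against 0.00 and 0.04 over all tested genes, and -0.12 and -0.13 between wounded and unwounded total and cortical RNA, against -0.03 and 0.02. Without wounded total replicate 1, the members called in the total comparison were 5, with Nfkbiz and Tnfaip3 lower, where 24.9% of 14073 genes were called. In wounded cells 3 members (Nfkbia, Nfkbiz and Tnfaip3) were then called higher in cortical RNA, where 24.7% of genes were called. Between the cortical fractions Nfkbia remained the member called, against 9.07% of genes. Groups did not overlap for 6 members between unwounded cortical and total RNA (4 higher and 2 lower, against 36.2% of all genes), and for 2 in wounded cells (both higher, against 29.2%). They did not overlap for 4 members between the total fractions (3 higher and 1 lower, against 32.1%) and for 4 between the cortical fractions (2 each way, against 26.9%). The change of the cortical-to-total ratio, as a description, was -0.48 (SE 0.22) for Relb and 0.21 (SE 0.17) for Nfkbib beside the -1.33 of Nfkbia. It was -0.22 for Nfkb2, 0.18 for Rela, 0.15 for Nfkbiz and for Nfkb1, and it was 0.73 (SE 0.71) for Tnfaip3, -0.66 (SE 0.43) for Ikbkb and 1.49 (SE 1.88) for Nfkbie. Without wounded total replicate 1 these values were 1.38 for Tnfaip3, -0.20 for Ikbkb, 0.65 for Nfkbiz, 0.06 for Rela, 0.10 for Nfkbib, -0.34 for Nfkb2 and 0.93 for Nfkbie. Over all omissions of 1 library, Nfkbie ran from -0.35 to 4.34.

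**Figure D2:**
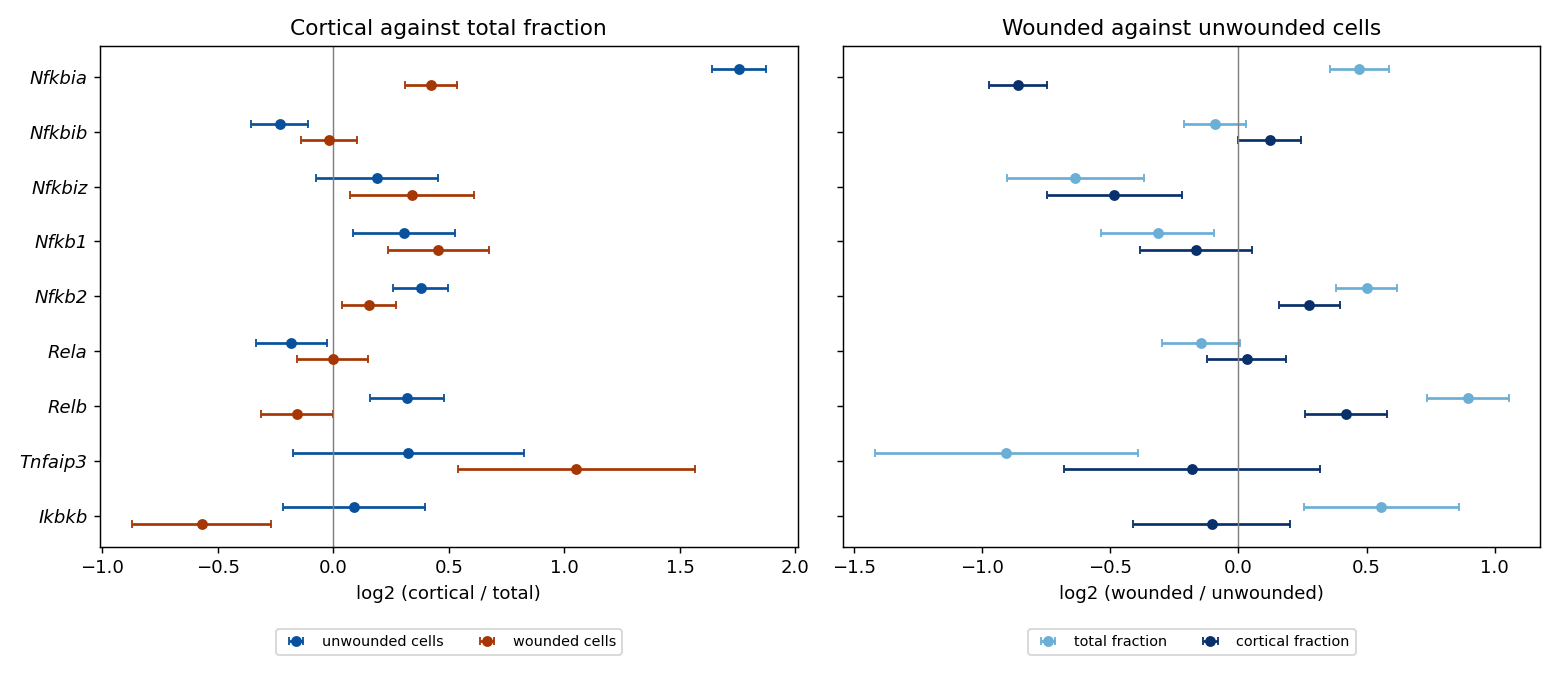
Fitted log2 differences of 9 members with standard errors as bars (Nfkbie is left out for its low counts): cortical against total RNA on the left, in unwounded and wounded cells, and wounded against unwounded cells on the right, in the total and cortical fractions. Nfkbia has separate left-hand values of 1.76 and 0.42 and right-hand values of opposite sign, 0.47 and -0.86, while Relb and Nfkb2 lie to the right of 0 in both fractions.

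The level of Nfkbia was also set against that of other members, with Nfkbia, chosen for its values, as the numerator. The FPKM ratio of Nfkbia to Rela was 1.26, 1.30 and 1.40 in unwounded total and 4.61, 4.59 and 6.38 in unwounded cortical libraries. It was 2.90, 1.70 and 1.68 in wounded total and 2.74, 3.14 and 2.38 in wounded cortical ones. The unwounded groups were thus far apart, and in wounded cells wounded total replicate 1 fell within the cortical range. Against Nfkbib, the other abundant IkappaB, the ratio averaged 0.58 ± 0.02 in unwounded total, 2.29 ± 0.15 in unwounded cortical, 0.88 ± 0.29 in wounded total and 1.16 ± 0.12 in wounded cortical RNA. Wounded total replicate 1, at 1.21, again fell within the wounded cortical range, and replicates 2 and 3 were each at 0.71. Against Nfkb2, which rose in wounded total RNA, the ratio was 1.09 ± 0.02 in unwounded and 1.10 ± 0.36 in wounded total RNA. Wounded total replicate 1 was at 1.51, and replicates 2 and 3, at 0.96 and 0.83, lay below the unwounded total range of 1.06 to 1.10. In the unwounded and wounded cortical fractions the ratio to Nfkb2 was 2.84 ± 0.24 and 1.28 ± 0.05. Against Relb it was 4.97 ± 0.29 and 3.74 ± 0.91 in unwounded and wounded total RNA, lower after wounding although Nfkbia itself was higher, and 13.5 ± 2.54 and 5.59 ± 0.92 in the cortical fractions. Against Nfkb1 it was 21.5 ± 3.84 and 59.2 ± 12.6 in unwounded total and cortical RNA, and 36.2 ± 4.52 and 36.9 ± 8.65 in wounded total and cortical RNA.

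Over the 12 libraries, no other member followed Nfkbia closely: Pearson's r of log2 CPM ran from -0.62 (Nfkbib) to 0.51 (Nfkb1), with Rela at -0.41 and Nfkb2 at 0.37. These are descriptions over libraries that share groups and depth. Among 8855 protein-coding genes whose counts averaged 100 or more, the 5 most similar to Nfkbia were Atf6 (r = 0.97) and Atf6b (0.96), sensors of protein folding in the endoplasmic reticulum, Bag3 (0.97), a co-chaperone, Prune2 (0.97) and Cyp1b1 (0.96), a cytochrome P450. Atf6 had 18.4 ± 1.90 CPM in unwounded total, 64.6 ± 5.14 in unwounded cortical, 23.9 ± 0.68 in wounded total and 41.0 ± 0.91 in wounded cortical RNA. Bag3 had 71.1 ± 8.09, 245 ± 17.2, 90.1 ± 9.68 and 148 ± 7.02 CPM in the same order. Atf6b had 66.7 ± 3.52, 343 ± 8.12, 65.9 ± 7.40 and 139 ± 4.07 CPM. Their cortical-to-total ratio changed by -1.04 (Atf6), -1.07 (Bag3), -1.46 (Prune2), -0.62 (Cyp1b1) and -1.28 (Atf6b) on the log2 scale. All 5 were picked for this likeness, so these values have no test.

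**Figure D3:**
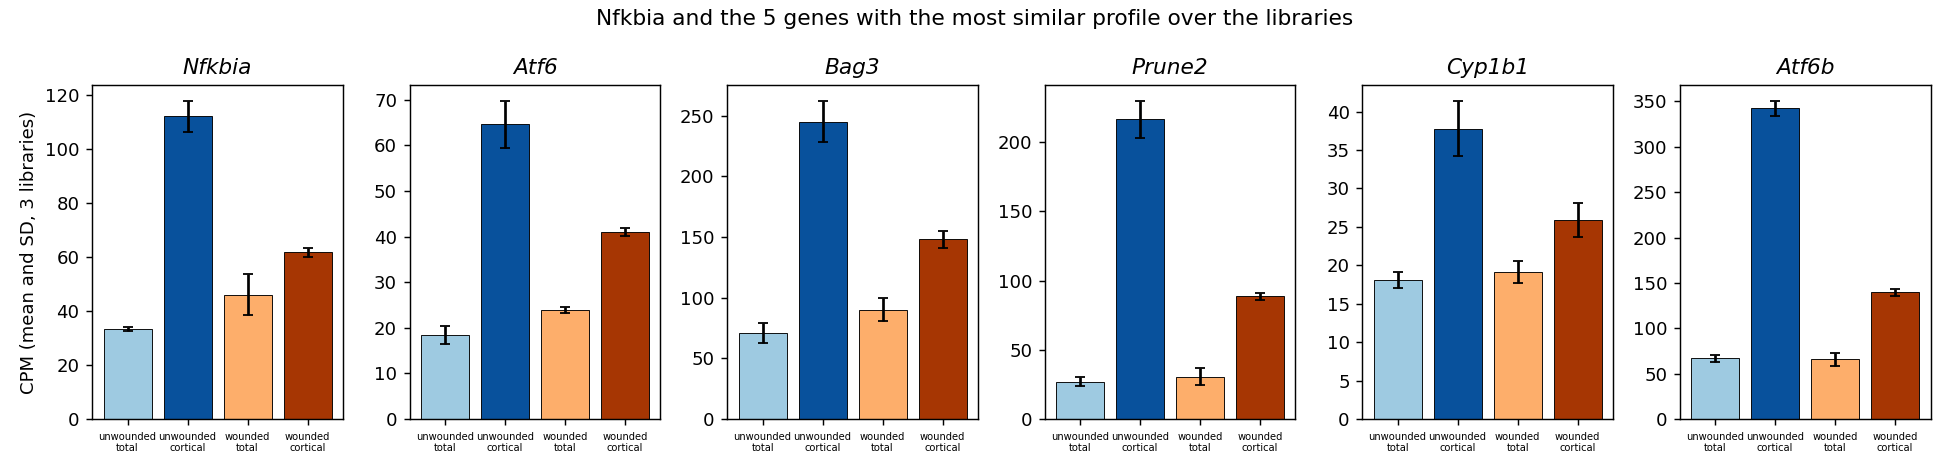
Mean CPM and SD of 3 libraries in each of the 4 groups for Nfkbia and for the 5 protein-coding genes most correlated with it; vertical axes start at 0 and differ between panels. In each panel unwounded cortical RNA is the highest bar and wounded cortical RNA the second highest, as for Nfkbia at 112 and 61.6 CPM.

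The rest of the pathway was read from 4 lists of 121 genes in all. Of 29 receptors and ligands, 15 could be tested, and none was called between cortical and total RNA in either state (3 and 2 had an unadjusted p under 0.05 in unwounded and wounded cells). In wounded total RNA 2 rose (13.3%, against 15.6% of all genes): Il18, an interleukin-1 family cytokine, from 3.99, 3.89 and 3.53 to 8.43, 14.4 and 17.8 CPM (log2 difference 1.83, SE 0.28, edgeR adjusted p = 0.00045), and Il1rn, the interleukin-1 receptor antagonist, by 0.98 (SE 0.24, edgeR adjusted p = 0.0112). Il18 also rose between the cortical fractions, by 1.18 (SE 0.28, edgeR adjusted p = 0.0325; 6.67% of the list, against 2.48% of all genes), a call lost in 9 of 24 alternatives that each left out a library. With wounded total replicate 1 left out, the list's calls between cortical and total RNA were 1 each way in unwounded cells (against 22.4% of all genes) and 1 higher in wounded cells (against 24.7%). Those after wounding stayed 2 in total RNA (against 24.9%) and 1 in cortical RNA (against 9.07%). Tnf had at most 1 count in any library, and Il1b, Cd40 and Tnfrsf1b had none. The list's median difference was 0.51 between cortical and total RNA in unwounded cells and -0.13 in wounded cells, 0.17 in total and -0.08 in cortical RNA after wounding.

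Of 37 kinases, adaptors and ubiquitin ligases, 36 could be tested. In unwounded cells 2 were higher and 4 lower in cortical than in total RNA (16.7%, against 14.2% of all genes): Card10, a scaffold that links receptors to Bcl10 and Malt1, by 0.73 (SE 0.16, edgeR adjusted p = 0.00555), and Ripk4, a keratinocyte kinase, by 0.65 (SE 0.11), against Ube2n, an enzyme that builds ubiquitin chains used in signalling (-0.73), Skp1a and Sharpin (both -0.64) among those lower. In wounded cells 4 were higher and 1 lower (13.9%, against 15.7% of all genes). Card10 (0.58) and Ripk4 (0.75) were again higher, with Map3k14, the NIK kinase of the non-canonical branch (1.06, SE 0.27, edgeR adjusted p = 0.0152), and Traf3, the adaptor through which NIK is degraded (0.80, SE 0.24, edgeR adjusted p = 0.0342), and Skp1a was lower (-0.50). Wounding raised 1 and lowered 3 in total RNA (11.1%, against 15.6% of all genes). Ube2n went from 185, 181 and 139 to 92.9, 84.4 and 62.3 CPM (log2 difference -1.08, SE 0.14, edgeR adjusted p = 0.00012), Traf3 fell by 0.83 and Chuk, the kinase IKKalpha, fell by 0.56, and Irak2, an interleukin-1 receptor kinase, rose by 0.77. None was called between the cortical fractions (edgeR, 7 with an unadjusted p under 0.05). When wounded total replicate 1 was left out, the calls were 3 higher and 6 lower between the total fractions (against 24.9% of all genes). Between the cortical fractions they were 2 lower (against 9.07%). They were 6 higher and 1 lower between the wounded fractions (against 24.7%) and 4 each way between the unwounded ones (against 22.4%). Without that library Traf3 was 0.49 and -0.52, still past the threshold. The list's medians were 0.11, 0.11, -0.11 and -0.09 in the 4 comparisons, against 0.00, 0.04, -0.03 and 0.02 over all genes. Of 24 alternatives, the Traf3 call was kept in 15 in wounded cells and in 17 in total RNA, and both were lost with FPKM in place of counts. The Skp1a call was kept in 22 in unwounded and 17 in wounded cells, and both were lost with library size scaling. The calls of Card10 and Map3k14 in wounded cells were each kept in 19 of 24 alternatives.

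Of 22 other subunits and inhibitory factors, 18 could be tested, and wounding raised 4 and lowered 2 of them in total RNA (33.3%, against 15.6% of all genes). Tollip, an inhibitory adaptor of Toll-like receptors, went from 90.9, 88.3 and 88.4 to 127, 148 and 163 CPM (log2 difference 0.71, SE 0.10, edgeR adjusted p = 0.00025), and it also rose in cortical RNA, by 0.51 (SE 0.10, edgeR adjusted p = 0.0125; 5.56% of the list, against 2.48% of all genes). Cyld, a deubiquitinase that restrains the pathway (0.74), Tax1bp1, an adaptor of A20 (0.57), and Nfkbil1 (0.76) rose as well. Of those that fell, Zc3h12a, a ribonuclease that degrades inflammatory transcripts, fell by 0.99 (SE 0.29, edgeR adjusted p = 0.0256), a call kept in 20 of 24 alternatives. Between cortical and total RNA of unwounded cells (3 calls, 16.7%, against 14.2% of all genes), Cyld (0.61) and Tax1bp1 (0.50) were higher and Pdlim2, a nuclear ubiquitin ligase for p65, was lower (-0.72). The Cyld call was kept in 16 of 24 alternatives, and those of Tax1bp1 and Pdlim2 in 24. In wounded cells (4 calls, 22.2%, against 15.7%) Zc3h12a (0.92) and Rnf11 (0.37) were higher and Commd1 (-0.73) and Pdlim2 (-0.38) lower. Of 24 alternatives, the call was kept in 24 for Commd1, 13 for Zc3h12a, 11 for Pdlim2 and 5 for Rnf11. The Zc3h12a value without wounded total replicate 1 was 0.69 and did not pass (edgeR adjusted p = 0.0694). Without that library, 19 of the list were tested. It had 6 higher and 2 lower calls between the total fractions (against 24.9% of all genes) and 4 higher between the cortical fractions (against 9.07%). Between the wounded fractions 1 was higher and 2 lower (against 24.7%), and between the unwounded ones 2 higher and 3 lower (against 22.4%). The medians were 0.06, 0.01, 0.06 and 0.10.

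Of 33 target genes, 15 could be tested, and several inflammatory ones were not detected: Il6, Ccl20, Cxcl10, Birc3, Vcam1 and Mmp9 had no count, and Icam1 at most 3. Calls were 3 between the unwounded fractions (20%, against 14.2% of all genes), 3 between the wounded ones (20%, against 15.7%) and 2 between the total ones (13.3%, against 15.6%). Cflar, an inhibitor of death-receptor signalling, was higher in cortical than in total RNA, at 45.4, 50.7 and 40.2 against 28.4, 24.2 and 25.1 CPM in unwounded cells (log2 difference 0.81, SE 0.13, edgeR adjusted p = 0.0006) and by 0.74 in wounded cells. The wounded call was kept in 22 of 24 alternatives and lost with the length trend removed. Sod2, the mitochondrial superoxide dismutase, was lower in both states (-0.58 and -0.47), and Gadd45b was lower in unwounded cells (-0.51). Wounding raised Ier3 by 0.74 (SE 0.16, edgeR adjusted p = 0.00507) and Junb by 0.67 (SE 0.11, edgeR adjusted p = 0.00079) in total RNA, and called none between the cortical fractions (edgeR, 5 with an unadjusted p under 0.05). S100a8 was called lower in wounded cortical RNA on counts of 0, 17 and 27 in total and 1, 0 and 0 in cortical libraries, a call kept in 5 of 22 alternatives. Leaving out wounded total replicate 1, 16 were tested. Calls were 2 higher and 3 lower between the unwounded fractions (against 22.4% of all genes) and 2 and 4 between the wounded ones (against 24.7%). They were 2 and 2 between the total ones (against 24.9%) and 2 and 1 between the cortical ones (against 9.07%). The medians were -0.03, -0.19, 0.01 and -0.06. In none of the 4 lists was a gene called for a change of the cortical-to-total ratio (edgeR, 1, 3, 2 and 3 genes with an unadjusted p under 0.05), and without wounded total replicate 1 it was 1 kinase, adaptor or ligase and 1 target gene, where 2.93% of all genes were called.

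**Figure D4:**
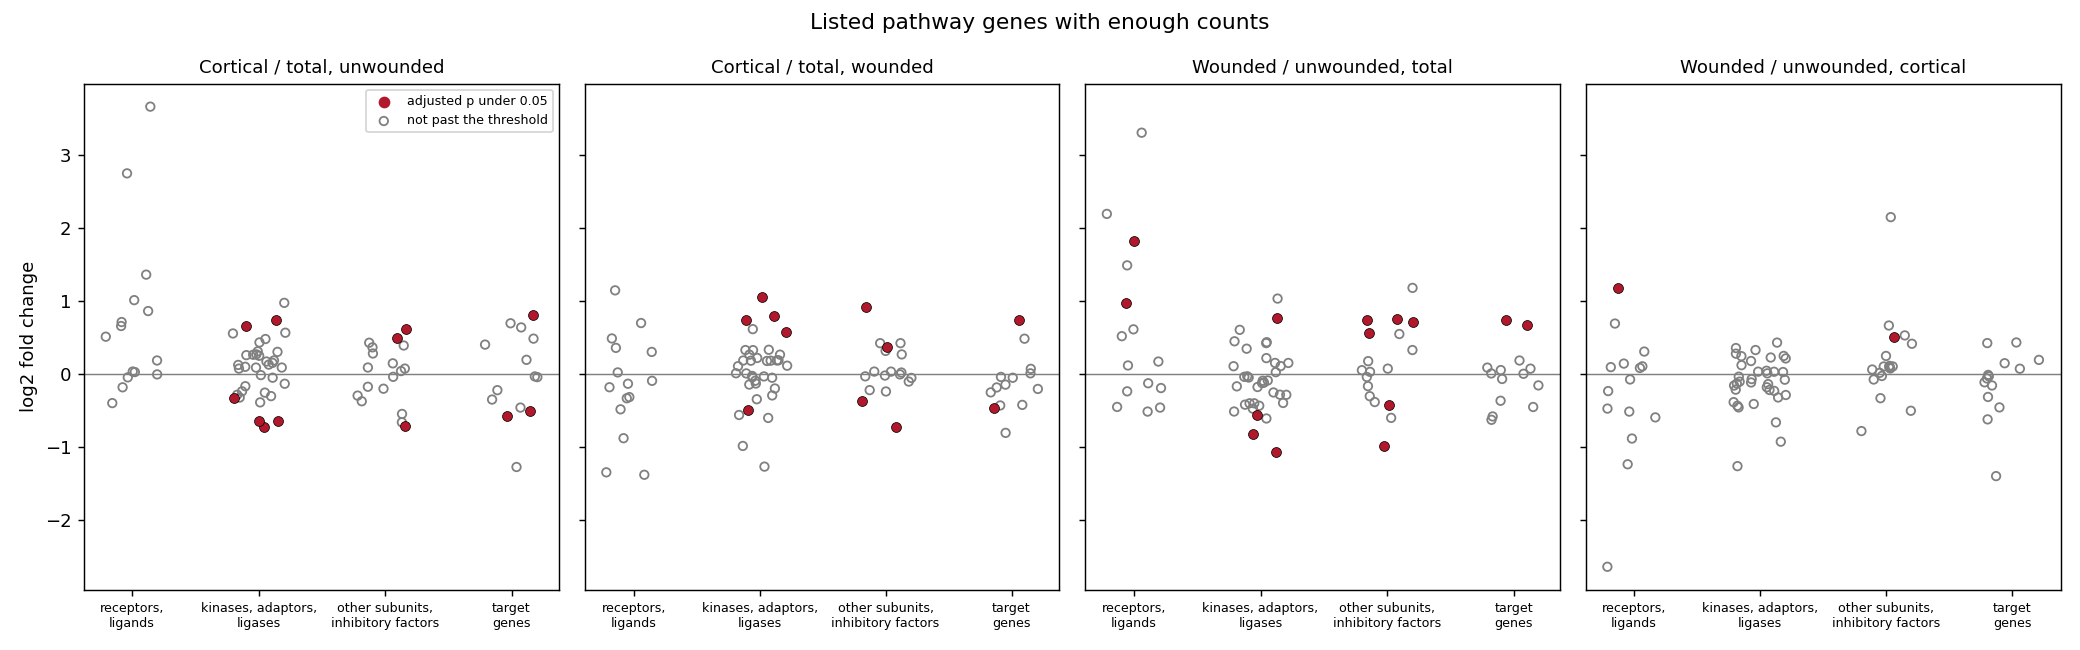
Log2 differences of the tested genes of the 4 pathway lists in the 4 comparisons, one point per gene with horizontal jitter; red points passed an adjusted p of 0.05 (edgeR) and grey circles did not. S100a8 is left out for its low counts. Called kinases, adaptors and ligases lie on both sides of 0 in 3 of the comparisons. In the cortical comparison of wounded with unwounded cells only Il18 and Tollip were called with all 12 libraries. Without wounded total replicate 1 the calls there were 1, 2, 4 and 3 in the lists from left to right, against 9.07% of all genes.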

How the data were processed

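Translating-ribosome RNA from 12 libraries (4 groups of 3) was read from raw counts per gene and FPKM values that the authors deposited. CASAVA, HISAT2 and the mm10 build are named in the submitters' processing notes, per the labels; the versions are not given in the sources used here. Libraries were poly-A selected and not strand-specific, per the labels. Totals ranged from 8980013 to 23457548 counts.

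One edgeR quasi-likelihood model (edgeR 4.0.16, R 4.3.3, limma 3.58.1) took all 12 libraries together, with 1 mean for each group, after filterByExpr and TMM scaling, with Benjamini-Hochberg adjustment over 13571 genes and a threshold of 0.05. CPM values are TMM-scaled. DESeq2 1.42.0, limma on log2(FPKM + 1) and log2(FPKM + 0.1), other scalings and filters, a gene-length correction (loess span 0.5), a replicate block and leaving out each library were the alternatives, 24 in all. The code was tested on simulated data. All members are named; of each pathway list, up to 5 called genes with the largest log2 change per comparison; and the 5 protein-coding genes (mean of at least 100 counts) most correlated with Nfkbia in log2 CPM (prior count 2). The members and lists were chosen with earlier results of these data known. Promoters are from RefSeq (GRCm38). Figures were drawn with matplotlib 3.10.9.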

Additional observations from a re-analysis of the deposited data

Results flagged for a closer look

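The wound difference of Nfkbia had opposite signs in the 2 fractions, and in each fraction the wounded and unwounded libraries did not overlap. It was 0.47 on the log2 scale in total RNA, where all 3 wounded libraries were higher, and -0.86 in cortical RNA, where all 3 were lower. The gap between them was -1.33. No p-value is given for that gap, because Nfkbia was chosen for it, and it is not counted here as a tested difference.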

How the results depend on the processing

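Of the single-gene results, 87 in all, 2070 values were recomputed: 1876 were unchanged, 140 lost the call, 8 gained one, 32 changed sign and 14 values without a test moved. Unchanged means the same direction and side of the threshold for tested values. For values without a test it means a shift smaller than the SD within groups. The change of the Nfkb1 ratio, 0.15 and at lowest -0.045, is counted as unchanged although its sign changed. The change of the Nfkbia ratio stayed between -1.43 and -1.19 when 1 library was left out. Nfkbia was 1.94 (library size scaling) and 2.01 (length trend removed, with or without the block) in unwounded cells, and 0.62, 0.63 and 0.65 in wounded cells.

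Genes called moved from 1928 to 3014 with only the groups compared (unwounded cortical against total) and to 949 to 3151 on leaving out a library. In wounded cells they moved from 2124 to 970 with only the groups compared, 1323 with the length trend removed, 1222 with that and the block, and 1084 to 3475 on leaving out a library. For wounded against unwounded total RNA they moved from 2116 to 1175 and 1128 to 3502. For the cortical fractions they moved from 337 to 199 (library size), 743 (DESeq2), 559 (no filter), 1423 (only the groups compared) and 108 to 1276. For the change of the ratio they moved from 17 to 11 (library size), 88 (DESeq2), 10 (FPKM + 1), 10 (FPKM + 0.1), 138 (no filter) and 4 to 413. The highest count of each came from leaving out wounded total replicate 1, except the 1423. Higher and lower calls in wounded cells were 624 and 1023 (FPKM + 1), 618 and 994 (FPKM + 0.1) and 472 and 851 (length) beside 1034 and 1090; between the cortical fractions 398 and 345 (DESeq2) and 286 and 273 (no filter) beside 217 and 120; and 56 and 82 (no filter) beside 3 and 14 for the ratio.

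Members called in unwounded cells were 1 with FPKM + 1 and 1 to 2 on leaving out a library. In wounded cells they were 2 with library size scaling, 2 with the length trend removed, 2 with that and the block, 0 with only the groups compared (edgeR) and 0 to 3 on leaving out a library. In total RNA they were 2 to 5.

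Signs changed for small differences. In wounded cells Nfkbib was 0.21 (library size), 0.13 (length) and 0.13 (length with block), and -0.14 to 0.058 without 1 library; Rela was 0.23, 0.071 and 0.067, and -0.12 to 0.095; Relb was 0.068 (library size); Nfkbie was -1.52 to 3.20. Between the total fractions Nfkbib was -0.17 to 0.023. Between the cortical fractions Rela was -0.022 (library size) and -0.0067 (length, with or without block), and -0.10 to 0.15; Nfkbie was -2.31 to 0.32, Tnfaip3 -0.51 to 0.19 and Ikbkb -0.34 to 0.14. In unwounded cells Rela was 0.0042 (library size), and Ikbkb -0.23 (length, with or without block) and -0.16 to 0.21. The cause was not tested.

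Same-numbered libraries were little alike: over 18 same-numbered pairs the correlation of deviations was -0.03 to 0.09. In every other group at once, 0 of 12 libraries correlated best with their own number. Unpaired libraries would rarely meet that requirement, so this count cannot decide whether the numbers pair the libraries. In a single other group a library could meet it, as unwounded total replicate 2 did among the wounded total libraries (0.09). With the replicate block, genes called for the change of the ratio were 10 in place of 17. The change of the ratio could not be fitted with only the groups compared, and Nfkbie was filtered out under some settings. Nfkbie had 0 to 21 counts and Tnfaip3 18 to 90 counts per library.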
